A study of Homo sapiens with 6 samples.

Results

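The genes described here encode the enzymes that build chondroitin chains, together with DSE, the epimerase of dermatan sulfate synthesis. The members were taken by name, each through the RefSeq accession at the start of a probe set's identifier. Of 7 genes sought, 6 had a row, with 7 probe sets in all out of 1259, and CHSY3 was the gene with 2. DSE was matched to no row and was not analysed here. The cells were RKO, a human line established from a carcinoma of the colon. A clonal population, RKO C2, was the parent, and RKO C2 F3, called F3 below, was sorted from it by flow cytometry for low u-PAR, the urokinase plasminogen activator receptor. F3 is 1 derived population, called clonal in the sample labels and simply a population in the design text, so a difference from C2 belongs to these populations. Neither was given a treatment that the labels record, and the study looked for the enzyme deficiency behind incomplete glycosylation of u-PAR. Each population has 3 arrays, numbered 1 to 3 in both, and no label ties them to separate cultures, so that p-values reflect only the spread between these arrays, possibly a technical one.

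Chondroitin sulfate is a long sugar chain of alternating glucuronic acid and N-acetylgalactosamine (GalNAc), carried on the core proteins of proteoglycans. Assembly starts on a short linker built on a serine of the core protein. CSGALNACT1 and CSGALNACT2 add the first GalNAc, which commits the linker to chondroitin rather than heparan sulfate, and complexes of CHSY1, CHSY3, CHPF and CHPF2 then lengthen the chain in the Golgi. DSE converts glucuronic acid in the finished backbone to iduronic acid, and sulfotransferases decorate the product.

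All values are log2 expression levels from RMA. The median of the table lay between 5.48 and 5.51 on the 6 arrays, the lowest correlation between 2 arrays, taken across probe sets, was r = 0.9981, and precision is limited by how few arrays there are. C2 replicate 2 held the highest value of the 6 for 26.1% of probe sets and F3 replicate 1 the lowest for 26.0%, the largest shares of any array in each direction. Of the colon epithelial markers listed, 4 of 13 were measured (LGALS4, MUC1, MUC2 and MUC13), with a median log2 level of 4.8 to 5.0 over the arrays. The 9 leukocyte markers measured had a median of 4.23 to 4.35 and the 7 fibroblast and endothelial markers one of 2.91 to 3.12. Single markers overlapped in level between the lists, and probe sets differ in how well they bind, so these medians do not rank cell types. None of these markers passed the test below, and without detection calls none can be called absent. In extracts of whole populations, fewer cells of a kind and less RNA per cell cannot be told apart.

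None of the chondroitin enzymes passed the test between F3 and C2. Limma, fitted on the whole table with Benjamini-Hochberg adjustment, called 0 of the 7 member probe sets at an adjusted p under 0.05, against 0.0794% of all probe sets, and at an unadjusted p under 0.05 also 0 of 7, against 5.4%. The smallest adjusted p of a member was 0.97. The 1 probe set called in the table was PIGB, of GPI anchor synthesis, at 1.82-fold lower in F3. No probe set was called without C2 replicate 2, C2 replicate 3 or F3 replicate 1, and 2 were called without F3 replicate 2 (PIGB and HAS2) or with a block for the replicate number (PIGB and S100A10). Without both arrays of number 2, HAS2 was the 1 called and PIGB had a limma adjusted p of 0.080. The log2 changes, F3 minus C2, of the 6 member genes, each by its probe set with the higher mean, ran from -0.16 for CHSY1 to 0.092 for CHSY3. Their median was -0.015, beside -0.0064 over all probe sets. Negative fitted changes were found for 6 of the 7 member probe sets and for 54.6% of all probe sets. The 95% intervals of the 7 probe sets reached at most 1.36-fold lower (CHSY1) and 1.24-fold higher (CHPF). The probe sets of CHSY3 and CSGALNACT1 were dim, and with no detection call their intervals describe the signal only.

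**Figure D1:**
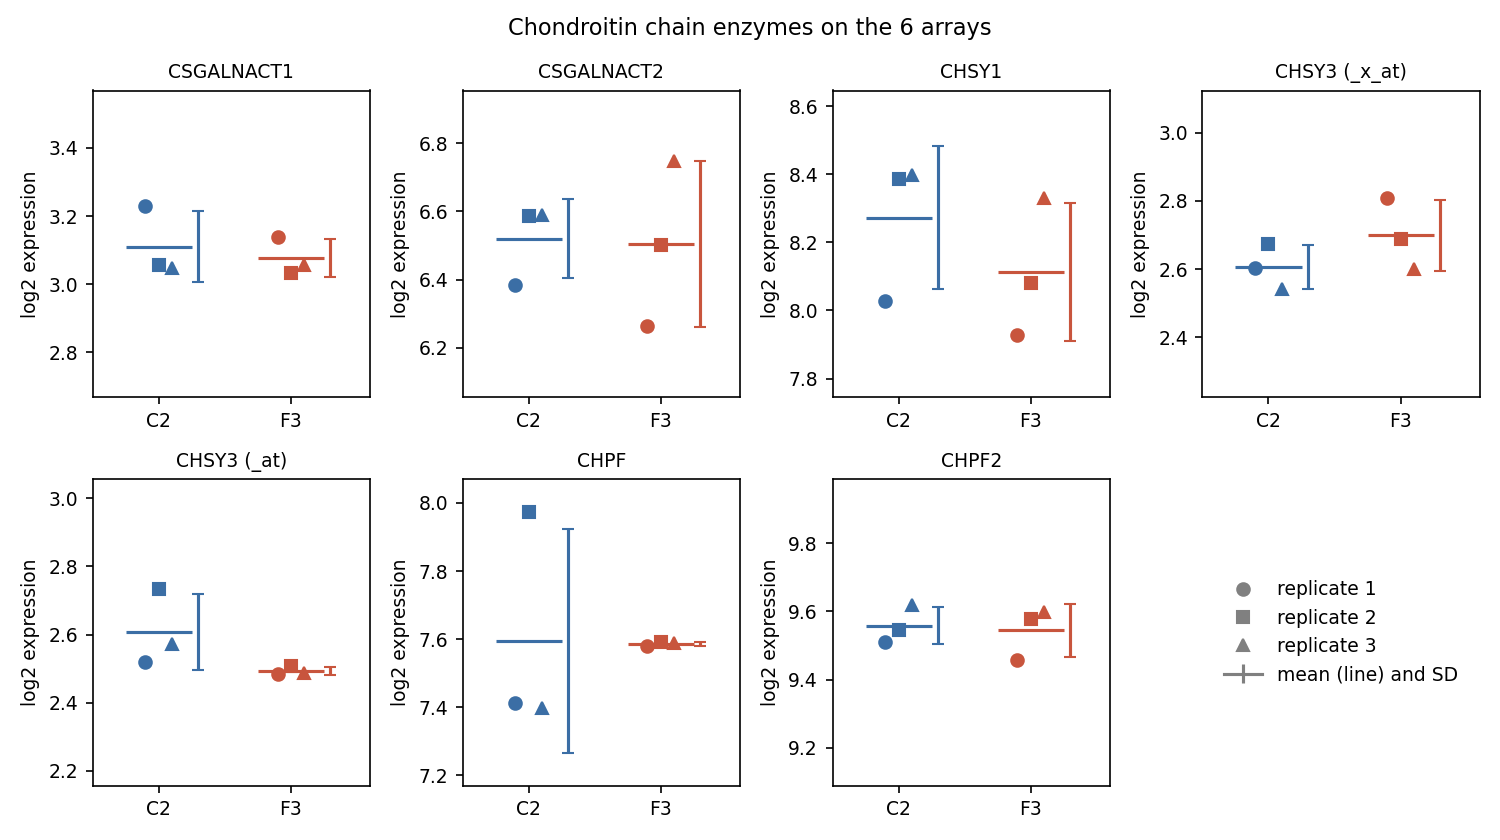
Log2 expression of the 7 member probe sets (y axis, each panel spanning the same range) in C2 and F3 (x axis). Points are arrays, with the marker giving the replicate number, horizontal lines are means and bars beside them SDs (n = 3). The populations overlap in every panel except CHSY3 (_at), where F3 is lower.

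Of the enzymes that start the chain, CSGALNACT2 was the one with a signal in the upper part of the table, its mean standing at the 63.1st percentile of all probe sets. Its log2 level was 6.39, 6.59 and 6.59 on C2 replicates 1 to 3 and 6.26, 6.50 and 6.75 on F3 replicates 1 to 3. F3 held both the lowest and the highest value, so the populations overlapped. The means were 6.52 ± 0.12 in C2 and 6.50 ± 0.24 in F3 (SD, n = 3 each), a change of -0.016 (log2, SE 0.12, limma adjusted p = 1.00), with a 95% interval from 1.22-fold lower to 1.19-fold higher. Without F3 replicate 1 the change was 0.10, and it was also above 0 after repeated quantile normalization and with array weights.

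CSGALNACT1, whose product likewise transfers the first GalNAc, had a dim probe set, at the 13.7th percentile. On the log2 scale it was at 3.23, 3.06 and 3.05 in C2 and 3.14, 3.03 and 3.06 in F3. Both arrays numbered 1 were the highest, whichever population they came from. The log2 change was -0.034 (SE 0.066, limma adjusted p = 1.00), with a 95% interval from 1.14-fold lower to 1.08-fold higher. With no detection call at this level, the interval describes the signal and need not bound the change of the transcript.

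Among the chain polymerases, CHSY1 had the largest change of the members with all arrays and the values as deposited. It was not the largest after repeated quantile normalization (CHSY3 _x_at, 0.11 against -0.10) or without C2 replicate 2, C2 replicate 3 or F3 replicate 1, where CHSY1 was at -0.10, -0.095 and -0.066, nor without both arrays of number 2, where CHPF was at 0.18. CHSY1 carries both the glucuronyl and the GalNAc transferase activity needed for elongation. Its log2 level was 8.03, 8.39 and 8.40 in C2 and 7.93, 8.08 and 8.33 in F3. F3 replicate 1 was the lowest array and the 2 highest were of C2, but F3 replicate 3 lay above C2 replicate 1. The means were 8.27 ± 0.21 in C2 and 8.11 ± 0.20 in F3 (SD, n = 3 each), so that the log2 change was -0.16 (SE 0.13) with a limma adjusted p of 0.97. The 95% interval ran from 1.36-fold lower to 1.09-fold higher. F3 was the lower array in each of the 3 pairs of equal number, with differences of -0.10, -0.31 and -0.067. The same held for the CHSY3 _at probe set, while the CHSY3 _x_at probe set was higher in F3 in each pair. The share of all probe sets with 3 pairs in the same direction was not counted. For CHSY1 the fit that blocks on the replicate number gave a limma adjusted p of 0.60. In that blocked fit 0 of the 7 member probe sets passed, against 0.159% of the table, and 1 of 7, CHSY1, had an unadjusted p under 0.05, against 8.02%. CHSY1 stood 73rd among the 1259 probe sets by size of change, and its spread within populations was wide, with a pooled SD of 0.21 against a median of 0.083 in the table. Leaving out single arrays gave -0.28 to -0.066.

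CHSY3, the paralog of CHSY1, had the dimmest signals of the group, and its probe sets pointed in opposite directions. The probe set ending in _x_at, an ending that in Affymetrix naming marks possible cross-hybridisation, had the higher mean, at the 5.32nd percentile. Its log2 level was 2.60, 2.67 and 2.54 in C2 and 2.81, 2.69 and 2.60 in F3, a change of 0.092 (log2, SE 0.068, limma adjusted p = 0.97). The populations overlapped on it. The probe set ending in _at, at the 3.02nd percentile, was at 2.52, 2.73 and 2.57 in C2 and 2.48, 2.51 and 2.49 in F3. On this one all F3 arrays lay below all C2 arrays, which held for 1 of the 7 member probe sets and, in either direction, for 10.3% of the table. Its log2 change was -0.12 (SE 0.065, limma adjusted p = 0.97). The lowest value anywhere in the table was 2.08, so both CHSY3 probe sets stood near the bottom of its range.

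CHPF, the polymerizing factor that acts with CHSY1, was at the 73.4th percentile. Log2 levels of CHPF were 7.41, 7.97 and 7.40 in C2 and 7.58, 7.59 and 7.59 in F3. C2 replicate 2 stood 0.38 above the next array, while the 3 F3 arrays lay within 0.011 of each other and between the other C2 arrays and C2 replicate 2. The means were 7.59 ± 0.33 in C2 and 7.59 ± 0.0058 in F3 (SD, n = 3 each), a change of -0.0082 (log2, SE 0.14, limma adjusted p = 1.00), with a 95% interval from 1.25-fold lower to 1.24-fold higher. Only 12 of 1259 probe sets, CHPF among them, had a C2 SD as large, and only 7 had an F3 SD as small. Without C2 replicate 2 the change was 0.18 (limma adjusted p = 0.80), and it was also above 0 after median centring, after repeated quantile normalization and with array weights.

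CHPF2, a glucuronyltransferase of the same family, had the brightest and steadiest signal of the members relative to the table, at the 86.9th percentile. The arrays read 9.51, 9.55 and 9.62 in C2 and 9.46, 9.58 and 9.60 in F3. F3 held the lowest array and C2 the highest, with overlap between, and its pooled SD of 0.066 was the smallest of the 7 probe sets. The log2 change was -0.014 (SE 0.060, limma adjusted p = 1.00), with a 95% interval from 1.11-fold lower to 1.09-fold higher, and it was above 0 after median centring and repeated quantile normalization. Probe sets differ in how well they bind, so these percentiles place each signal in the table and do not order the genes by transcript number.

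**Figure D2:**
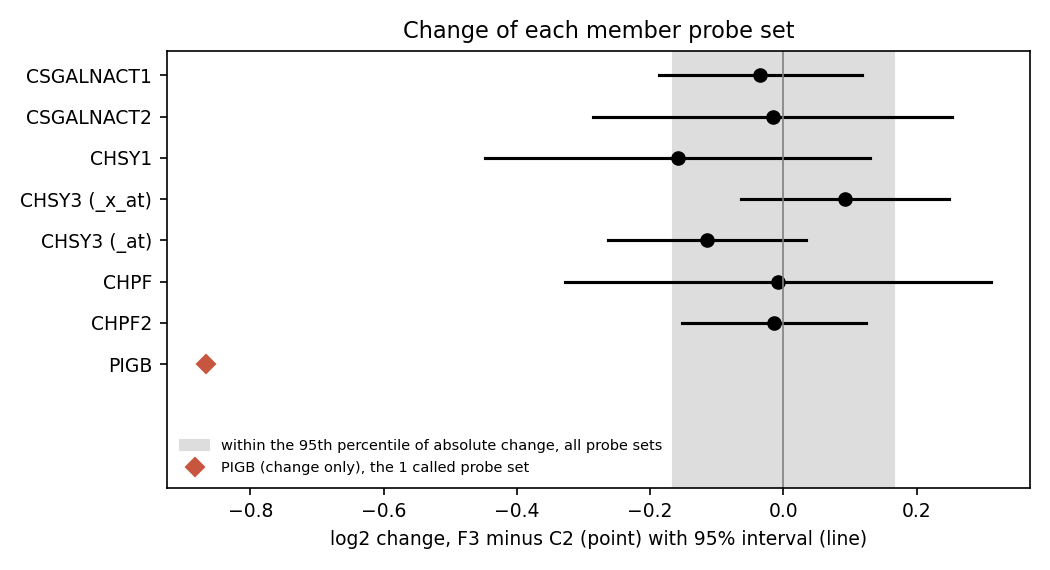
Log2 change, F3 minus C2 (x axis), of each member probe set (rows): points are fitted changes and lines 95% intervals from limma. All 7 intervals, from the fit without the replicate block, include 0. The grey band holds absolute changes up to 0.17, the 95th percentile of all probe sets, and the diamond is PIGB at -0.87.

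Paralogs were also set against each other within each array, so that a shift shared by both cancels. CHSY1 minus its partner CHPF averaged 0.68 on the log2 scale in C2 and 0.53 in F3, a change of -0.15 (exact two-sided permutation test over the 6 arrays, p = 0.60), with changes of -0.27, 0.074 and -0.26 within numbers 1 to 3. For CHPF minus CHPF2 the change was 0.0059 (exact permutation p = 1). For 2 comparisons one side was a dim probe set with no detection call, so that only the change of the difference is given and it need not measure the dim gene. For CSGALNACT1 minus CSGALNACT2 it was -0.018 (exact permutation p = 1). For CHSY1 minus CHSY3 it was -0.25 (exact permutation p = 0.30), with -0.31, -0.32 and -0.13 within numbers 1 to 3. This value rests on the _x_at probe set of CHSY3, and with the mean of both CHSY3 probe sets it was -0.15 (exact permutation p = 0.50). Adjusted over the 4 comparisons, each exact permutation p was 1, and 3 arrays against 3 cannot go below an exact p of 0.10. An exact test that flips signs within the numbered pairs gave p = 0.25 for CHSY1 minus CHSY3, which is the smallest it can give, and 0.50 for CHSY1 minus CHPF.

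Among the members, CHSY1, CSGALNACT2 and CHPF2 shared their 2 lowest arrays, the pair numbered 1. F3 replicate 1 was the lowest and C2 replicate 1 the next lowest array for all 3 genes, and for CSGALNACT1 the 2 arrays numbered 1 were the 2 highest. The arrays numbered 1 were the 2 lowest for 16.4% of all probe sets and the 2 highest for 8.34%. For CHSY1 and CSGALNACT2 the order was the same down to the third array, F3 replicate 2, and above it CSGALNACT2 was highest on F3 replicate 3 and CHSY1 on C2 replicate 3. The part of the replicate number in these levels was not tested gene by gene.

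**Figure D3:**
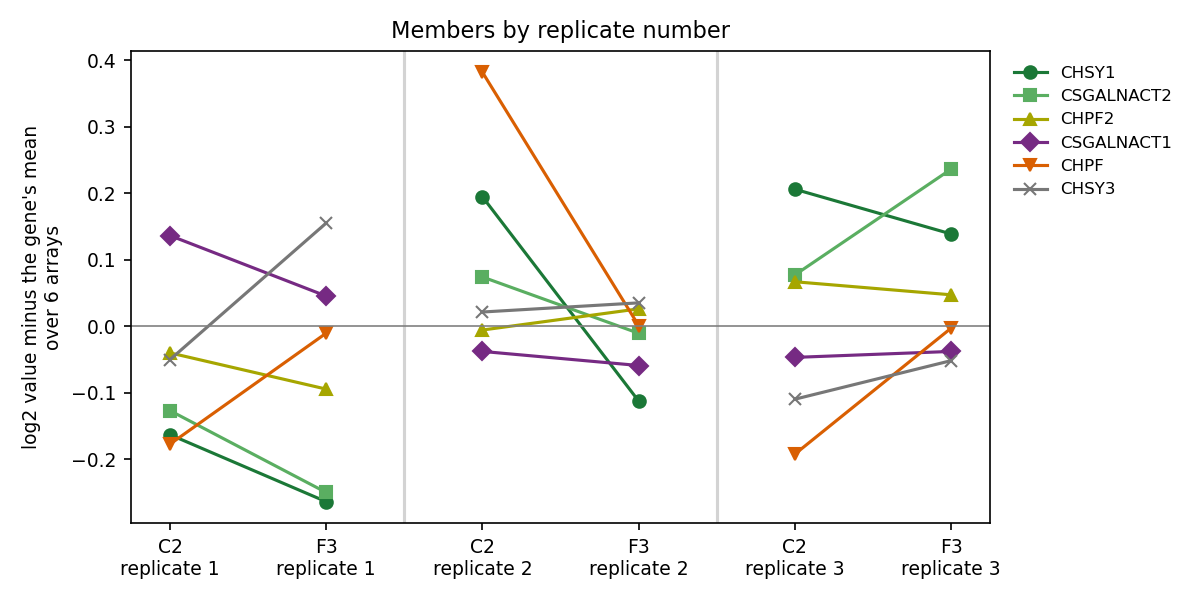
Log2 value of each member gene minus its own mean over the 6 arrays (y axis), with arrays ordered by replicate number (x axis) and lines joining the arrays of equal number. CHSY1, CSGALNACT2, CHPF2 and CHPF are below their means on both arrays numbered 1 and CSGALNACT1 is above, and CHPF also stands out on C2 replicate 2.

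The sequences just upstream of these 3 genes are shown because they shared their 2 lowest arrays, and that of CHSY3 as the member with the dimmest signal. A relation between these sequences and the order of the arrays or the levels was not tested. Each is the 250 bases before the RefSeq transcript start in GRCh38.p14, 5′ to 3′ on the gene's strand and outside its transcribed part. They lie at chr15:101252049-101252298 on the minus strand (CHSY1), chr10:43138195-43138444 on the plus strand (CSGALNACT2), chr7:151232233-151232482 on the plus strand (CHPF2) and chr5:129904215-129904464 on the plus strand (CHSY3). Capitals mark the GC box, GGGCGG on either strand.
CHSY1: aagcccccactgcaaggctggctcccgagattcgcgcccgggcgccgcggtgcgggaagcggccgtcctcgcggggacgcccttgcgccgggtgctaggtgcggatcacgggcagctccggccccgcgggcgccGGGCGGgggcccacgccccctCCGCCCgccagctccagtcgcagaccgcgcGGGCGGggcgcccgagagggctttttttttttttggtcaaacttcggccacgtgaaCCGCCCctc
CSGALNACT2: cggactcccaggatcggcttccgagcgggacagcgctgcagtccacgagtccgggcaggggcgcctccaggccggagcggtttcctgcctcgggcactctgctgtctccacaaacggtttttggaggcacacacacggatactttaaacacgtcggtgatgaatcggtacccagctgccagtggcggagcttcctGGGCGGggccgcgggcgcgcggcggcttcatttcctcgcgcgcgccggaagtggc
CHPF2: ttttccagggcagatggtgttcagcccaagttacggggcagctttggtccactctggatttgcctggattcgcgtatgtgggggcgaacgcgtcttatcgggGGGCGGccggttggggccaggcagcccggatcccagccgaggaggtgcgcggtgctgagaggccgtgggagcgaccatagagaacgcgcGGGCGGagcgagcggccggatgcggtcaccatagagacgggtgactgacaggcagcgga
CHSY3: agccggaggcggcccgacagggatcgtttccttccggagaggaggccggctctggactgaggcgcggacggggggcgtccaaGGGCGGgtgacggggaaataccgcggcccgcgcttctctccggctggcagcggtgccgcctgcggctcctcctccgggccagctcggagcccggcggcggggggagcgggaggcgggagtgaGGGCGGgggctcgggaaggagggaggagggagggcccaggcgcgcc
The CHSY1 window held 4 GC boxes, those of CHPF2 and CHSY3 held 2 each and that of CSGALNACT2 held 1. The motif occurred in 42.6% of all 35116 RefSeq windows of this length. Neither CCAAT nor TATAAA, searched on both strands and present in 32.0% and 10.7% of windows, occurred in these 4. GC content was 74.8% for CHSY1, 67.2% for CSGALNACT2, 66.0% for CHPF2 and 77.2% for CHSY3, against a median of 58.0% over all windows. CG dinucleotides numbered 36, 29, 25 and 31 in the same order, against a median of 11. The window of the dim CHSY3 had the highest GC content of the 4 and fewer CG dinucleotides than that of CHSY1. RefSeq gave 10 windows for 6 of the 7 genes sought, and 8 of the 10 held a GC box. These 6 are not the 6 measured genes: they include DSE, which had no probe set, and leave out CSGALNACT1, which had no window. A match describes these letters and is not a binding site.

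CHPF, the member with the largest SD over the 6 arrays (0.21), was compared with the other 926 named genes for likeness of pattern. The measure was the root mean square difference of mean-centred log2 values over the 6 arrays, with a median of 0.19 over all candidates. SLC35B2, which carries the sulfate donor PAPS into the Golgi, and B3GAT3, which adds the last glucuronic acid of the linker, both had a difference of 0.053, and ITPK1, an inositol phosphate kinase, one of 0.074. SLC35B2 was at 10.17, 10.73 and 10.03 in C2 and 10.35, 10.38 and 10.29 in F3. B3GAT3 was at 7.09, 7.76 and 7.11 in C2 and 7.27, 7.32 and 7.21 in F3. ITPK1 was at 9.08, 9.48 and 9.04 in C2 and 9.04, 9.12 and 9.12 in F3. All 3 shared with CHPF a high value on C2 replicate 2, which follows from choosing them by likeness to CHPF. That array was the highest for 26.1% of all probe sets. CHPF was 1 of 4 probe sets whose highest array was C2 replicate 2 by a gap of at least 0.38, and the other arrays together held 1 such probe set.

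**Figure D4:**
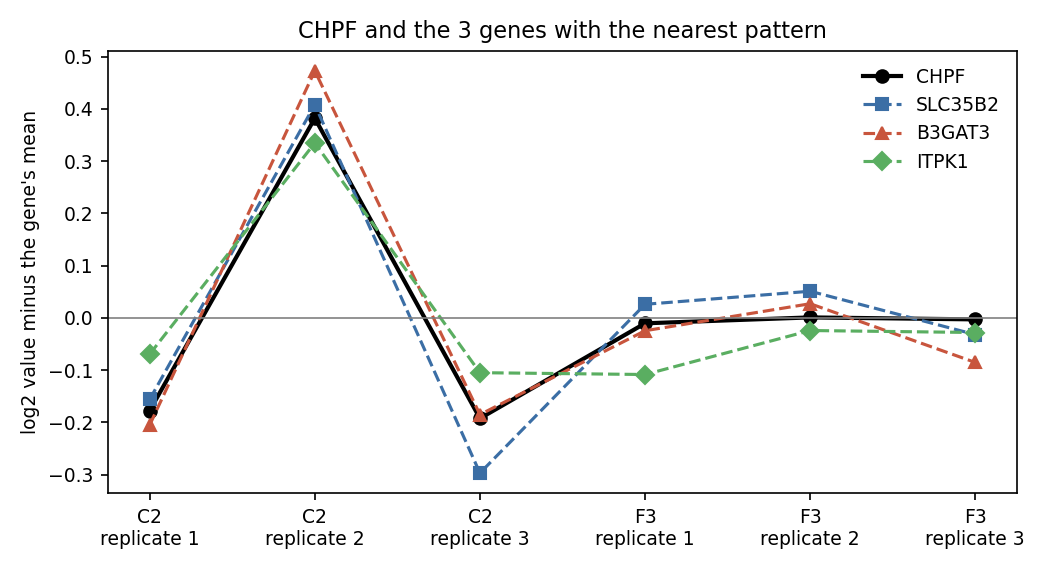
Log2 value minus the gene's mean (y axis) on each array (x axis) for CHPF and the 3 named genes with the smallest root mean square difference from it. The 4 lines part from 0 most on C2 replicate 2.

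The rest of the pathway was described from lists ordered by role. Of 53 other measured genes of chondroitin and dermatan sulfate synthesis, supply, core proteins and breakdown, 0 rose and 0 fell at an adjusted p under 0.05, with or without the replicate block. At an unadjusted limma p under 0.05 there were 5 of the 53, against 68 of 1259 (5.4%) in the table. No overlap of arrays was found for 9 of the 53, against 130 of 1259 (10.3%). Both shares were larger among the 53 than in the table, a difference that was not tested. The 53 genes had a median log2 change of -0.018. Of their changes 31 (58.5%) were negative, against 54.6% of the table. Genes with the smallest p in each list are named below.

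Of 5 linker enzymes measured, none passed. All 5 fitted changes were negative, against 54.6% of all probe sets, and ran from -0.10 to -0.0080 with a median of -0.054. XYLT2, which attaches the first xylose, was at 7.82, 8.01 and 7.80 in C2 and 7.70, 7.81 and 7.80 in F3, a log2 change of -0.10 (limma adjusted p = 0.97). B3GALT6, which adds the second galactose, had a log2 change of -0.054 (95% interval -0.22 to 0.12) and ran from -0.10 to 0.021 with single arrays left out. In the same settings XYLT2 ran from -0.14 to -0.037 and B3GAT3 from -0.17 to 0.17, and XYLT2 alone of the 5 kept its sign. C2 replicate 2 was the highest array for XYLT2, B3GALT6 and B3GAT3. Of 9 sulfotransferases and DSEL, the paralog of DSE, none passed, with 6 negative changes and a median of -0.059. CHST11, a chondroitin 4-O-sulfotransferase with a dim signal, was at 3.22, 3.23 and 3.28 in C2 and 3.13, 3.07 and 3.17 in F3, without overlap, a log2 change of -0.12 (limma adjusted p = 0.97). CHST15, which adds a further sulfate to 4-sulfated units, was at 8.06, 8.49 and 8.26 in C2 and 7.90, 8.13 and 8.21 in F3, a log2 change of -0.19 (limma adjusted p = 0.97; -0.30 to -0.080 with single arrays left out). DSEL itself had a log2 change of 0.027 from a C2 level of 2.46, near the bottom of the table.

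Of 11 precursor supply genes none passed, with a median of 0.020, and 3 of the 5 genes at an unadjusted p under 0.05 were here. PAPSS2, which makes the sulfate donor PAPS, had the largest change of the 53 genes. Its log2 level was 4.80, 4.88 and 4.80 in C2 and 4.47, 4.13 and 4.42 in F3, without overlap, a change of -0.49 (log2, SE 0.089, limma adjusted p = 0.19). Of 17 core protein genes none passed, with a median of -0.013. BCAN, encoding brevican, was at 8.74, 8.66 and 8.61 in C2 and 8.39, 8.39 and 8.33 in F3, a log2 change of -0.30 (limma adjusted p = 0.19), and its dimmer probe set was at 0.088. NCAN, encoding neurocan, had a log2 change of 0.12 (limma adjusted p = 0.97).

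Of 11 catabolic genes none passed, with a median of -0.023. GUSB, the lysosomal beta-glucuronidase, was at 9.51, 9.63 and 9.51 in C2 and 9.40, 9.43 and 9.37 in F3, a log2 change of -0.15 (limma adjusted p = 0.84). IDS, the iduronate sulfatase, had a log2 change of -0.28 (limma adjusted p = 0.97), with its other probe set at -0.021. The 5 EXT and EXTL genes, listed as heparan polymerases for the heparan sulfate branch from the linker, were likewise all short of the threshold. All 5 changes were negative, against 54.6% of all probe sets, and ran from -0.11 to -0.022. Their median was -0.085, beside -0.015 for the 6 members, and the difference between the lists was not tested. Not all 5 kept their sign with single arrays left out, where the highest change reached was 0.063. EXT2 was at 7.63, 7.76 and 7.50 in C2 and 7.46, 7.53 and 7.56 in F3, and EXT1 had a log2 change of -0.11 (limma adjusted p = 0.97). C2 replicate 2 was the highest array for EXT2 and EXT1, as it was for 26.1% of all probe sets.

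**Figure D5:**
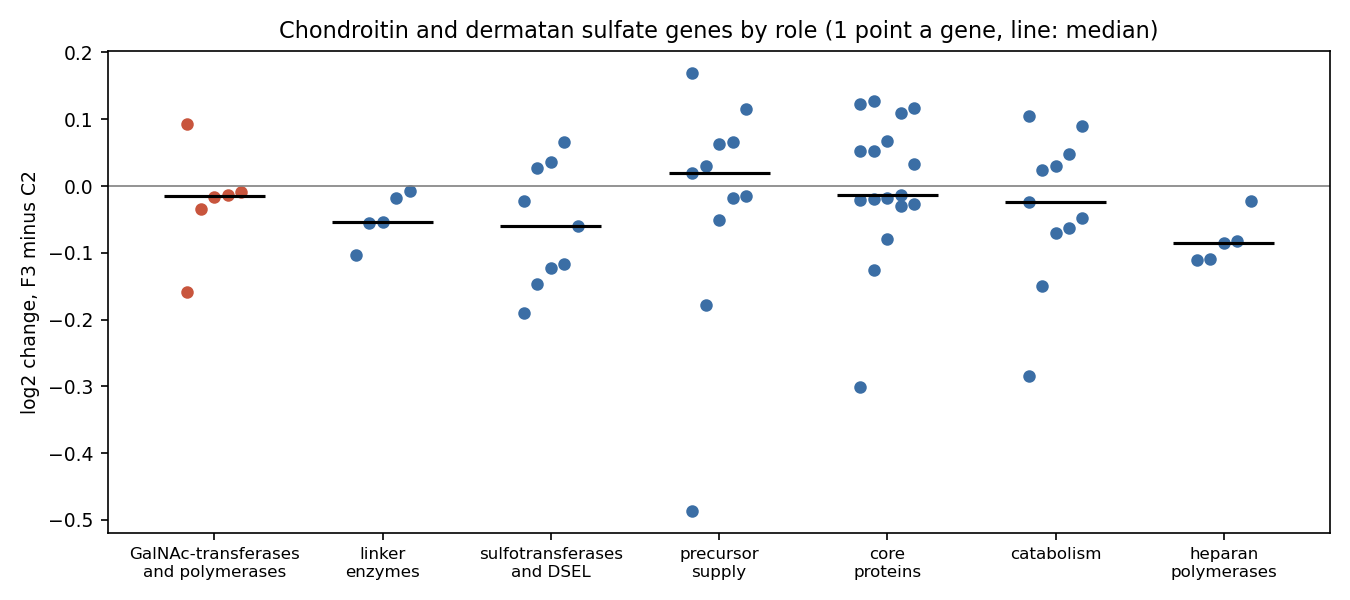
Log2 change, F3 minus C2 (y axis), of each measured gene by role (x axis), 1 point a gene with the median as a line. The GalNAc-transferases and polymerases run from -0.16 to 0.092, and PAPSS2 at -0.49 is the lowest point.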

How the data were processed

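Trizol was used for total RNA, and biotinylated cRNA followed the standard Affymetrix protocol, per the labels' protocols. The authors deposited log2 expression values, with 1 value for each probe set on each array. They named RMA, per the submitters' processing notes. The version of RMA, the definition of probe sets and the genome build stay not given in the sources used here. This method equalises the distributions of arrays and damps changes of dim probe sets. No detection calls came with the log2 values, which ran from 2.08 to 14.1. Identifiers were matched without version to RefSeq (GRCh38): 1043 of 1259 had 1 symbol, none several.

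F3 was compared with C2 in limma 3.58.1 (R 4.3.3; lmFit and eBayes, two-sided, all 6 arrays, adjustment over all probe sets, threshold 0.05). The script was tested on simulated data. Where a gene had several probe sets, that of the highest mean stood for it. Changes are F3 minus C2 with 95% intervals, and the paralog differences within arrays were tested by exact permutation. Arrays of equal number share a label suffix. Their deviations from the population means correlated with r = 0.52, 0.18 and 0.26 for numbers 1, 2 and 3. For unequal numbers r reached 0.15 (C2 number 2 with F3 number 3). Equal numbers were treated as pairs in the replicate block and the sign flips, and not in the main fit. The limma values are from the fit without a block unless stated. The members and lists were chosen with earlier results of these data known. Genes named are all members, the 2 smallest p in each pathway list, any probe set past the threshold and the 3 patterns nearest to the most variable member. A gene that this rule names is not reported here. DSEL was added as the paralog of DSE, and HAS2 and S100A10 because an alternative called them. Alternatives were the replicate block, centring on medians, quantile normalization once more, dropping dim probe sets, eBayes with a trend and robust, weights for arrays, single arrays left out, a threshold of 0.10 and averaging the probe sets of a gene. Leaving out both arrays of number 2 and flipping signs within pairs were chosen after seeing the data.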

Additional observations from a re-analysis of the deposited data

How the results depend on the processing

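No member probe set passed the threshold in any of the 14 alternatives, in which the smallest limma adjusted p of a member was 0.60 (CHSY1 with the replicate block). With that block 1 of the 7, CHSY1, had an unadjusted p under 0.05, against 8.02% of all probe sets, and the block changed no call of a member. The count over all probe sets was 2 with the replicate block and at a threshold of 0.10, and 0 to 2 with single arrays left out. The median change of the members ran from -0.061 to 0.029. CHSY1 and both CHSY3 probe sets kept their sign. Some changes just below 0 turned above it, for which the cause was not tested. Centring on medians put CHPF2 at 0.0013 and CHPF at 0.0071. With repeated quantile normalization CSGALNACT2 was at 0.023, CHPF2 at 0.034 and CHPF at 0.058. With array weights CSGALNACT2 was at 0.0014 and CHPF at 0.040. Without both arrays of number 2, chosen after seeing the data, CSGALNACT2 was at 0.018 and CHPF at 0.18, and the 1 probe set called was HAS2 in place of PIGB (limma adjusted p = 0.080). Over single arrays left out CSGALNACT1 ran from -0.066 to 0.025, CSGALNACT2 from -0.14 to 0.10, CHPF2 from -0.041 to 0.030 and CHPF from -0.11 to 0.18. The paralog differences ran from -0.41 to -0.10 for CHSY1 minus CHSY3, -0.12 to 0.20 for CHPF minus CHPF2, -0.17 to 0.11 for CSGALNACT1 minus CSGALNACT2 and -0.28 to 0.011 for CHSY1 minus CHPF, over single arrays left out. Averaging the probe sets of CHSY3, CHSY1 minus CHSY3 was -0.15. The filter on dim probe sets left 4 of the 7 and gave no value for CHSY3 or CSGALNACT1.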
